A study of Mus musculus with 2 samples.

Results

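Semaphorins and their plexin and neuropilin receptors were measured in 2 vessel pools from mouse embryos, one of the internal carotid artery (ICA) and one of the external carotid artery (ECA). The 31 genes, 20 semaphorins of classes 3 to 7, 9 plexins and 2 neuropilins, were taken from a list of names, and every probe set annotated to a single one of them was kept. They had 78 probe sets, among 34945 probe sets naming a single gene and 18193 genes in all. The embryos were of the ICR strain at E13.5, untreated, and both pools came from unsorted microdissected vessel segments, of 22 embryos per the design text, which does not say whether the same embryos gave both vessels. Each pool was hybridised to 1 Affymetrix expression array, so every value is a single measurement, no test across samples was possible and no p-value is given. The series asks how endothelin guides axons that leave the superior cervical ganglion, a sympathetic ganglion in the neck, and here the family is set side by side in the carotid branches along which such axons grow.

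Semaphorins are secreted or membrane-bound guidance proteins that share the sema domain, and many of them repel growth cones. Plexins are the signalling receptors, which act on small GTPases and the cytoskeleton, and most class 3 semaphorins reach A-type plexins only through a neuropilin co-receptor. In this setting class 3 ligands are known for steering sympathetic axons and neural crest cells, and neuropilins and plexin D1 are known from endothelium, where neuropilins also bind VEGF.

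Most of these genes had similar signals in both pools. Ratios are ECA over ICA signal as log2 values, taken from the probe set with the highest mean signal of each gene, here called the brightest. An array's median signal served as a floor, 47.5 on the ICA and 52.3 on the ECA array. Where only one side reached its floor, the ratio to the other array's floor was used as a lower bound. With bounds counted at their bound, no member was at least 2-fold higher in the ECA pool, against 2.15% of 12419 genes with a ratio or bound. Sema3d, which has a lower bound only (0.58), passed 2-fold at a 25th percentile floor. Sema5a was the single member at least 2-fold higher in the ICA pool, against 1.51% of genes, so 1 of 31 members passed 2-fold against 3.66% of genes in either direction. The median log2 ratio of the 31 members was 0.05, against 0.06 over all genes. Above 0 lay 18 members and below it 13, against 56.2% of all genes above 0. Probe sets of one gene differed with a pooled standard deviation of 0.34 on the log2 scale over 4315 genes, a technical spread on the same arrays, and 17 of the 31 members (54.8%) lay within it, against 63.6% of all genes.

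**Figure D1:**
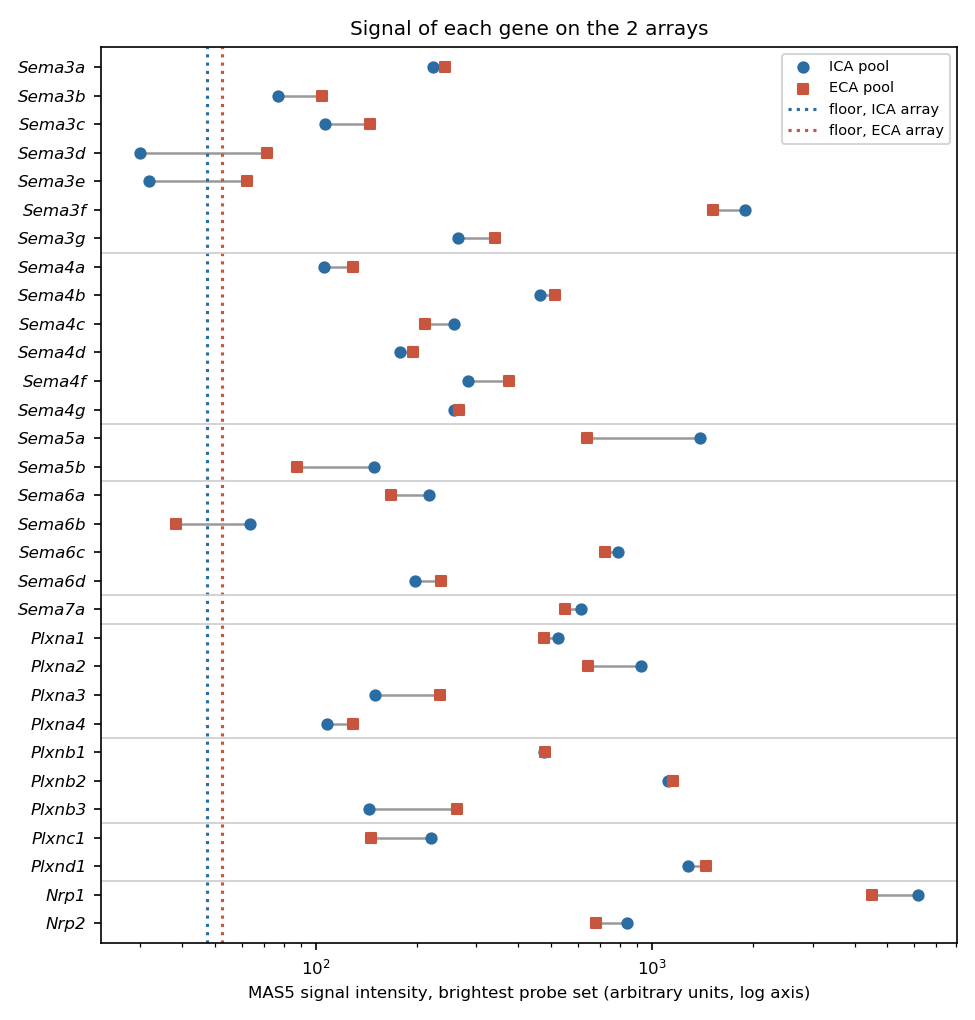
MAS5 signal intensity (log axis) of the brightest probe set of each of the 31 genes in the ICA pool (blue circles) and the ECA pool (red squares), 1 array each, with each array's floor as a dotted line and horizontal lines between classes. The Sema5a markers, at 1385 and 642, are the only pair more than 2-fold apart among genes at or above both floors, while Sema3d, Sema3e and Sema6b each have a marker below its floor.

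The class 3 semaphorins, which are secreted, were mostly a little higher in the ECA pool. Of the 7 genes, 6 had a ratio or bound above 0, against 56.2% of all genes, also after centring, quantile normalization and loess. The class median was 0.39, which is the lower bound of Sema3e. At a 75th percentile floor only 3 genes kept a value, 2 of them above 0, with a median of 0.12. The 5 genes measured in both pools differed by less than 1.5-fold, and Sema3d and Sema3e have lower bounds only. Sema3a, which repels sympathetic axons through Nrp1, read 222 in the ICA and 241 in the ECA pool, a log2 ratio of 0.12. Its other pair of probe sets lay under both floors. Sema3b read 77.0 and 104 (0.44), and a further probe set gave 0.34. For Sema3c, which guides neural crest cells in the outflow tract, the brightest probe set read 106 ICA and 145 ECA (0.45). Its other probe set read 65.4 and 63.9 (-0.03), so the difference was present in only 1 of its 2 probe sets.

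Sema3d and Sema3e reached the floor in the ECA pool only. Sema3d read 29.9 in the ICA and 71.2 in the ECA pool, a lower bound of 0.58 on the log2 scale, and its other probe set lay under both floors. Sema3e, the ligand that binds plexin D1 directly, read 31.8 and 62.4 (at least 1.31-fold higher), and its other 3 probe sets lay under both floors. Both ECA signals stood close to the floor of 52.3. A floor at the 25th percentile gave Sema3d a log2 ratio of 1.25 and Sema3e of 0.97, and a floor at the 75th percentile gave neither a value. Sema3g, a class 3 ligand made by arterial endothelium, had a single probe set that read 265 and 340 (0.36). In the same pools 7 of 7 arterial endothelial markers with a ratio or bound were above 0, with a summed signal of 3388 ICA and 4998 ECA over 8 genes, Gja5 being under both floors, and their part in the Sema3g value was not tested.

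Sema3f, which acts through Nrp2 and also repels sympathetic axons, was the 1 class 3 gene below 0. Its brightest probe set read 1893 in the ICA and 1515 in the ECA pool (-0.32). That probe set is of the kind named by the array's maker as open to cross-hybridisation, and the other 2 disagreed with each other, at 158 and 215 (0.45) and at 71.5 and 54.6 (-0.39). The direction of Sema3f therefore differed between its probe sets, and it was above 0 without those open to cross-hybridisation.

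Class 4 semaphorins, membrane proteins that signal mainly through B-type plexins, had 5 of 6 members above 0, against 56.2% of all genes. Their median was 0.14. After centring, quantile normalization and loess 4 were above 0, since Sema4g turned. The largest difference was that of Sema4f, a neural member, at 282 ICA and 376 ECA (0.41), read at one that can cross-hybridise. A further Sema4f probe set, not of that kind, read 104 and 140 (0.43), so its probe sets gave similar ratios. In the same pools 9 of 9 general neuronal markers with a ratio were at least 2-fold higher in the ECA pool, with a summed signal of 1976 ICA and 10054 ECA over 10 genes, and their part in this value was not tested. Sema4c, a ligand of plexin B2, read 258 and 211 (-0.29), the 1 class 4 member below 0. Sema4b read 464 and 513 (0.15), Sema4d, the ligand of plexin B1 also known as an immune cell surface protein, 177 and 195 (0.13), and Sema4g 257 and 265 (0.05). These 4 ratios were smaller than the technical spread of 0.34. Sema4a read 105 and 128 (0.28) at a probe set open to cross-hybridisation, while its other probe set read 59.5 and 48.6, the latter under its floor, a bound of -0.19.

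Class 5 semaphorins, which carry thrombospondin repeats outside the membrane, stood lowest of the ligand classes by median. Sema5a, which can act on axons and on vascular cells, read 1385 in the ICA and 642 in the ECA pool at its brightest probe set. It was 2.16-fold higher in the ICA pool by that probe set, a log2 ratio of -1.11, which held after centring, quantile normalization and loess (-1.16 to -1.05). The other Sema5a probe sets did not show it. They read 123 and 137 (0.15), 68.9 and 62.0 (-0.15), and 13.8 and 27.2, the last under both floors, so the median over probe sets was -0.15. Sema5b read 149 ICA and 87.5 ECA (-0.77) at the brightest and 96.7 and 103 (0.10) at the other probe set. In both genes the difference thus rested on 1 probe set. Where on the transcripts the probe sets lie was not analysed here.

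The skeletal muscle markers moved in the same direction as the brightest Sema5a probe set, while 2 further Sema5a probe sets read -0.15 and 0.15. All 10 of 10 muscle markers were at least 2-fold higher in the ICA pool. Their lowest ICA signal was 410 (Neb), and their summed signal was 23772 ICA and 5221 ECA. The fibroblast markers were mixed, with Col14a1 (1.26) and Lum (0.47) above 0 and a summed signal of 20178 ICA and 16396 ECA. Of these markers 6 of 8 were below 0, Col1a1 and Fbln1 only at -0.01. Also below 0 were 6 of 7 macrophage and leukocyte markers and 5 of 6 venous and lymphatic endothelial markers with a ratio or bound. The remaining marker lists had medians above 0, and 5432 of 12419 genes lay below 0. Whether any of these lists has a part in the Sema5a value was not tested. In such bulk RNA fewer cells of a type and less RNA per cell cannot be told apart.

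The start-site window of Sema5a is shown as the member with the largest difference, next to those of Plxnb3 and Plxna3, the members with the highest ratios toward the ECA pool. Each runs from 250 bases before to 50 bases after the RefSeq start in GRCm38.p6, 5′ to 3′ on the + strand, and such windows were found for 26 of the 31 genes. They lie at chr15:32244563-32244862 for Sema5a, chrX:73756853-73757152 for Plxnb3 and chrX:74328816-74329115 for Plxna3. Capitals mark GGGCGG, the GC box, on either strand.
Sema5a: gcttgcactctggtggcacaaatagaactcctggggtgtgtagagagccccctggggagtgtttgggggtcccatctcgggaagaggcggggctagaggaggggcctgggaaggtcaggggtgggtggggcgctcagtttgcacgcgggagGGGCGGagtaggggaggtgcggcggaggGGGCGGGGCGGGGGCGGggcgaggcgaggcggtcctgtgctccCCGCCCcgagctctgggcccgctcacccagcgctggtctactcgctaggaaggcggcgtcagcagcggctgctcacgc
Plxnb3: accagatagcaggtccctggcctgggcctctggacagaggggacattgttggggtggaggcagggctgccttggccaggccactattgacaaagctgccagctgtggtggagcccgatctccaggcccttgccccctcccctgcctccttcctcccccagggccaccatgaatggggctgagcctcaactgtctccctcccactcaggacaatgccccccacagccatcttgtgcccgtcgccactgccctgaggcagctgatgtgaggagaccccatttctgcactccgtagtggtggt
Plxna3: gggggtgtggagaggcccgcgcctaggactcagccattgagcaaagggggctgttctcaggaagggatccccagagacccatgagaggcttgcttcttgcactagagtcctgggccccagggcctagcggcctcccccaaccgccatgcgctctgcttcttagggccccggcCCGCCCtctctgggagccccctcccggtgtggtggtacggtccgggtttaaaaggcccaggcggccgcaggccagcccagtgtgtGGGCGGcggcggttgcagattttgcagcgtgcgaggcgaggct
The Sema5a window held 5 matches to GGGCGG, some overlapping, and 23 CpG dinucleotides. The Plxna3 window held 2 matches and 18 CpG, and the Plxnb3 window no match and 4 CpG. Among 32851 windows of this length 35.7% held at least 1 such match. The TATA box, searched as TATAAA on both strands, was in none of these 3 windows and in 13.6% of all. The arrays measured no binding or methylation at these sites, so the letters are given as a description.

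Class 6 semaphorins, transmembrane ligands of A-type plexins, had 3 of 4 members below 0, against 5432 of 12419 genes, and a median of -0.20. The 3 genes measured in both pools differed by less than 1.5-fold at the brightest probe set. Sema6a, which binds plexins A2 and A4, read 216 ICA and 167 ECA (-0.37), and a further probe set read 87.5 and 59.7 (-0.55). It was 1 of 2 members with several probe sets on both arrays, all of them below 0, the other being Plxnc1. Sema6b, a ligand of plexin A4, reached the floor in the ICA pool only, at 63.4 against 38.3, and was at least 1.21-fold higher there, with a log2 ratio of -0.73 at a 25th percentile floor. Sema6c read 789 and 723 (-0.13) at the brightest probe set, while a further one read 42.2 and 73.8, a bound of 0.64 in the other direction. Sema6d, which binds plexin A1, read 198 and 236 (0.25), with -0.10 at another probe set. The 1 class 7 member, Sema7a, held to the membrane by a lipid anchor and bound by integrins and plexin C1, read 612 and 549 (-0.16), within the technical spread, and its other probe set lay under both floors.

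**Figure D2:**
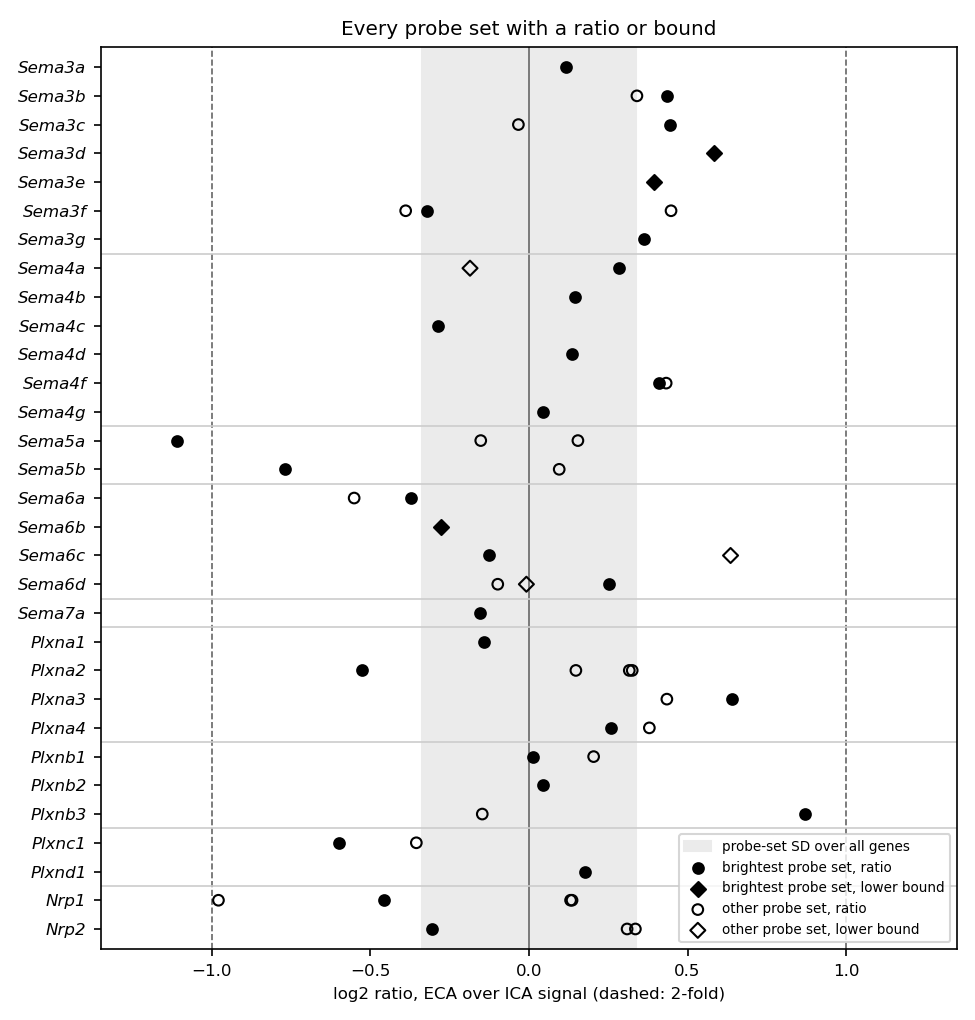
Log2 ratio of ECA over ICA signal for each probe set with a ratio (circles) or lower bound (diamonds), by gene, with the brightest probe set filled, the probe-set standard deviation of 0.34 shaded and 2-fold as dashed lines. Filled and open symbols fall on opposite sides of 0 in Plxna2, Plxnb3 and Nrp2, and the open symbols of Sema5a lie near 0 while the filled one is at -1.11.

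The receptors had a median log2 ratio of 0.01 over 11 genes, of which 6 were above 0, against 56.2% of all genes. That median was -0.04 after centring and 0.18 with the median over probe sets, so it had no fixed sign. None passed 2-fold. At 1.5-fold, counting bounds at their bound, 2 of the 31 members were higher in the ECA pool, Plxna3 and Plxnb3, against 9.39% of all genes, and 3 in the ICA pool, Sema5a, Sema5b and Plxnc1, against 5.44%.

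Among A-type plexins, which carry the class 3 and class 6 signal, Plxna3 stood highest. It read 150 in the ICA and 234 in the ECA pool (0.64), and its other probe set 50.6 and 68.4 (0.43). The ratio was between 0.53 and 0.64 under all settings tried. Plxna3 is known from sympathetic and sensory neurons. The sympathetic neuron markers had 6 of 7 members at least 2-fold higher in the ECA pool and a summed signal of 1779 ICA and 6536 ECA over 9 genes, with Gata3 and Slc18a2 under both floors, and their part in the Plxna3 value was not tested. Plxna4, a further receptor for class 3 and class 6 ligands in these neurons, read 108 and 129 (0.26) and 60.8 and 79.1 (0.38). Both genes were thus higher in the ECA pool at both of their probe sets, by less than 2-fold. Plxna1 read 525 and 476 (-0.14), with its other probe set under both floors. Plxna2 read 925 and 642 (-0.53) at the brightest probe set, while its other 3 lay above 0, from 0.15 to 0.33, with signals between 118 and 248.

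The B-type plexins Plxnb1 and Plxnb2, receptors of class 4 ligands, were near equal. At the brightest probe set Plxnb1 read 476 and 481 (0.01) and Plxnb2 read 1117 and 1150 (0.04), and both were just below 0 after centring. A further Plxnb1 probe set read 204 and 235 (0.20). Plxnb3, proposed as a Sema5a receptor and known from glia, had the highest ratio of all 31 genes. It read 143 ICA and 262 ECA (0.87), 1.83-fold, at a probe set whose name marks it as shared between transcripts. Its other probe set read 70.0 and 63.2 (-0.15), so the Plxnb3 direction depended on the probe set. Of the markers of Schwann cells and neural crest, 3 of 6 with a ratio were at least 2-fold higher in the ECA pool. Sox10 was at 0.63 and S100b at 0.17, while Erbb3 was below 0 (-0.30). The list had a summed signal of 2000 ICA and 3033 ECA over 7 genes, with Cdh19 under both floors. The part of these markers in the Plxnb3 value was not tested.

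Plxnc1, the Sema7a receptor found on leukocytes and neurons, was 1.52-fold higher in the ICA pool. Its brightest probe set read 220 and 145 (-0.60) and the other one on both arrays read 109 and 85.2 (-0.36), while the remaining 4 lay under both floors. Of the macrophage and leukocyte markers 6 of 7 with a ratio or bound were below 0, and their summed signal was 14209 ICA and 9324 ECA over 8 genes, with Aif1 under both floors. The general neuronal markers went the other way, 9 of 9 with a ratio being at least 2-fold higher in the ECA pool. The part of either list in the Plxnc1 value was not tested. Plxnd1, the endothelial receptor of Sema3e, read 1281 and 1446 (0.18), within the technical spread. Endothelial markers had a median of 0.07 and a summed signal of 4119 ICA and 4347 ECA over 10 genes.

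Neuropilins gave opposite directions by probe set. Nrp1, which binds Sema3a and VEGF, read 6182 in the ICA and 4499 in the ECA pool at the brightest probe set (-0.46). The next read 1266 and 1387 (0.13) and 1096 and 1205 (0.14), and the fourth 660 and 334.5 (-0.98). Nrp1 was thus near equal at 2 probe sets and higher in the ICA pool at 2. Nrp2, which binds Sema3f, read 839 and 679 (-0.31) at the brightest, but 548 and 679 (0.31) and 453 and 572 (0.34) at a further 2. After quantile normalization and after loess the Nrp1 ratio was -0.16, less than the technical spread. Over all genes the median log2 ratio fell from 0.17 in the dimmest to -0.19 in the brightest of 10 signal groups, and its part in the ratio of a probe set as bright as that of Nrp1 was not tested beyond these settings.

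Disagreement between probe sets was as common in all genes as in this family. Of the 16 members with at least 2 probe sets measured on both arrays, 9 had ratios on both sides of 0, or 56.2%, against 52.4% of 4315 genes. All probe sets lay above 0 in 5 members and below 0 in 2. The pooled standard deviation between probe sets was 0.42 for the members and 0.34 over all genes. Of the 78 member probe sets, 51 were measured on both arrays, 6 gave a bound and 21 (26.9%) lay under both floors, against 40.4% of all named probe sets.

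Ligands and receptors known or proposed to bind each other were set side by side as 9 pairs, of which 4 shared a sign. Over all genes 56.2% lay above 0. Pairs of other genes were not counted, so the 4 shared signs are a description and give no result on matching. Both genes were below 0 for Sema3f with Nrp2 (-0.32 and -0.31) and Sema7a with Plxnc1 (-0.16 and -0.60), and above 0 for Sema3e with Plxnd1 (0.39 as a bound and 0.18) and Sema4d with Plxnb1 (0.13 and 0.01). The other 5 had opposite signs. Sema5a with Plxnb3 lay farthest apart, at -1.11 and 0.87, both from a single probe set. The rest were Sema3a with Nrp1, Sema4c with Plxnb2, Sema6a with Plxna4 and Sema6d with Plxna1, all within 0.5 of 0. The signs of Plxnb1 and Plxnb2 turned after centring, and those of Sema3f and Nrp2 differed by probe set.

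Partners of the pathway outside the family were compared on a list of 47 genes, of which 44 had a ratio or bound. That list was chosen with earlier results of these data known, so its shares are a description and give no result on enrichment. At least 2-fold higher in the ECA pool were 4, or 9.09%, against 2.15% of all genes, and 0 in the ICA pool. The shares toward the ECA pool were nearer with no floor, 5 of 46 (10.9%) against 8.38%, and at 1.5-fold, 6 of 44 (13.6%) against 9.39%. At 1.5-fold in either direction they were 7 of 44 (15.9%) against 14.8%. The 4 genes were Crmp1 and Dpysl3, collapsin response mediator proteins that act downstream of Sema3a, and L1cam and Chl1, adhesion molecules that bind Nrp1. Crmp1 read 197 ICA and 520 ECA (2.64-fold), and L1cam read 588 and 1507 (2.56-fold). Dpysl3 read 589 and 1468 (2.49-fold), with 0.50 as the lowest log2 ratio of its 3 probe sets. Chl1 read 55.2 and 114 (2.07-fold), and it was within 2-fold with a pseudocount (log2 ratio 0.70) and after each of the 3 scalings. These 4 genes are abundant in developing neurons, whose 10 general markers had summed signals of 1976 ICA and 10054 ECA, and the part of those markers was not tested. Dpysl2, a relative of Crmp1 made more widely, read 1662 and 1900 (0.19). Lowest were Met, a kinase that couples to B-type plexins, which read 83.6 and 42.4 and was at least 1.60-fold higher in the ICA pool, and Limk1, a kinase acting on cofilin, at 1124 and 791 (-0.51). The GTPases Rac1 and Rhoa were near equal (-0.14 and 0.00), as were the receptor kinase genes Kdr (0.07) and Erbb2 (-0.08). The 4 ligand processing genes, among them Furin at 0.16, which cleaves class 3 semaphorins, all lay within the technical spread.

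**Figure D3:**
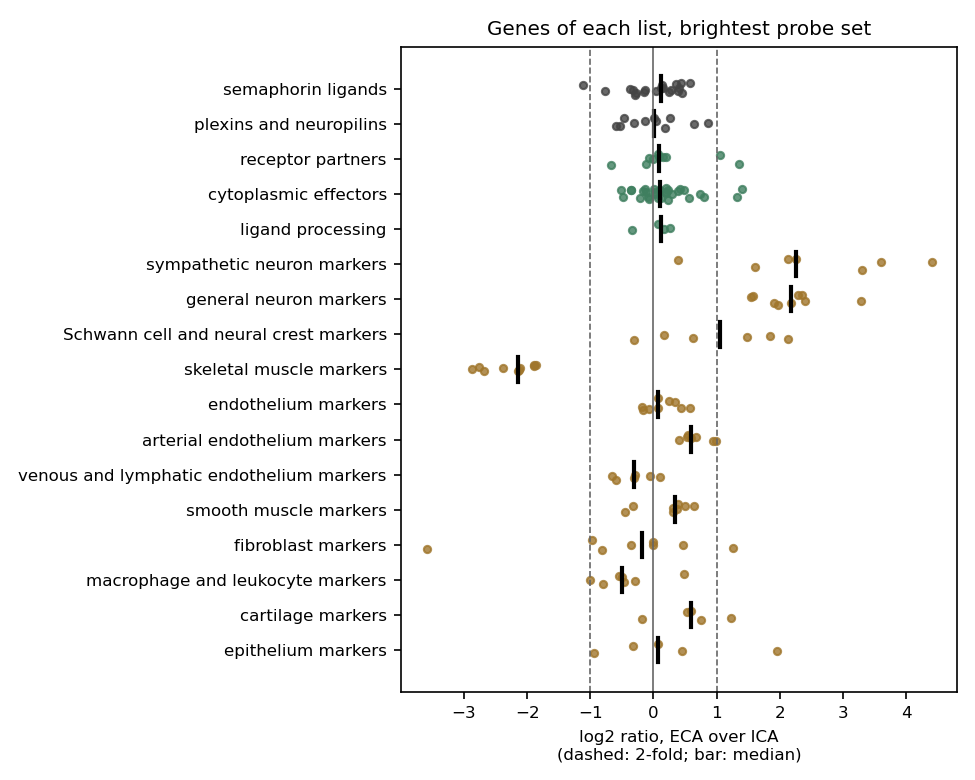
Log2 ratio of ECA over ICA signal for the brightest probe set of each gene (points, spread vertically for legibility) in the ligands, the receptors, the pathway partner lists and 12 marker lists, with each list's median as a bar and 2-fold as dashed lines. Ligands and receptors centre near 0 at 0.13 and 0.01, between the neuronal markers, with medians of 2.25 and 2.18, and the skeletal muscle markers at -2.14.

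**Figure D4:**
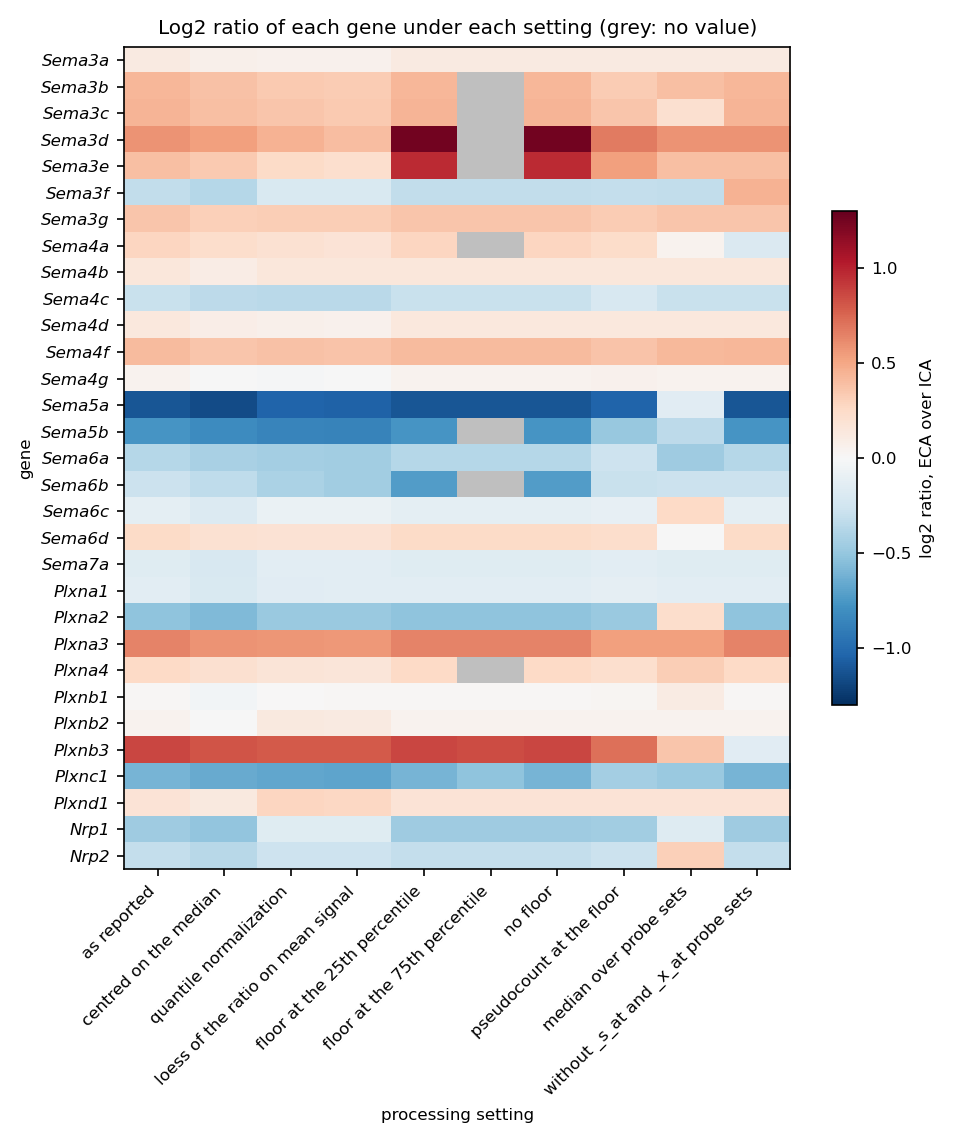
Log2 ratio of ECA over ICA signal for each gene (rows) under each processing setting (columns), in colour from blue (higher in the ICA pool) to red (higher in the ECA pool), with grey where no value was had. Sema5a is pale in the column for the median over probe sets (-0.15), Plxnb3 turns blue without shared and cross-hybridising probe sets (-0.15), and Plxna3 is red in all columns.

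Vessel markers were present in both pools. Of the endothelial list 9 of 10 and of the smooth muscle list 8 of 8 genes were at or above both floors, as were the fibroblast and skeletal muscle lists in full. Pecam1, an endothelial adhesion molecule, lay under both floors. Both arrays had a 2% trimmed mean signal of 150 and a Spearman correlation of 0.94 across probe sets. Signal was weighted to the 3′ end, where the 3′ over 5′ ratio of Actb was 4.41 (ICA) and 3.53 (ECA). That of Gapdh was larger, at 8.39 (ICA) and 7.09 (ECA).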

How the data were processed

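RNA of each vessel pool went through 2 rounds of oligo-dT-primed amplification and biotin labelling, per the labels' protocols, so signals favour 3′ ends. The authors deposited signal intensity for each probe set on a linear scale; the submitters' processing notes name GCOS 1.4 and MAS5. They were used as deposited, without detection calls. The table held 45037 non-control and 64 control probe sets. The platform annotation named 1 gene for 34945, several for 932 and none for 9160; symbols came from RefSeq (GRCm38.p6) for the 34741 with a known gene number. Only probe sets with 1 gene were used, and a gene was represented by its brightest. The array median was the floor, and a bound pointing against the measured side gave no value. Calls were made at 2-fold. All 31 members were named, and of the partner list those past 2-fold and the 2 highest and lowest; others were named as background. Members and lists were chosen with earlier results of these data known. Of 47 partners and 102 markers, those without a probe set naming them alone were not analysed here. The 9 processing alternatives and 2 thresholds tried changed one choice at a time. The steps were tested on simulated data with planted differences larger than 2-fold in bright genes. Differences as small as those of most members were not covered. Python 3.11.15, numpy 2.4.6, pandas 2.3.3, statsmodels 0.14.6 and matplotlib 3.10.9 were used. Precision is limited by the number of arrays, 1 per pool.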

Additional observations from a re-analysis of the deposited data

How the results depend on the processing

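No paired analysis was possible because each group had 1 array, and no array could be left out. Under the 9 processing alternatives, 256 of 271 member values moved by less than the technical spread of 0.34 and 15 moved by more. Many of them could not move. Another floor changes only genes with a signal under one of the floors. The probe-set choices change only genes with several probe sets or a brightest one of the marked kinds. Sema5a, the only member past 2-fold, kept its sign. The sign was the same under all alternatives with a value in 21 of 31 members. After centring, quantile normalization and loess it was the same in 28, all but Sema4g, Plxnb1 and Plxnb2. The number of members at least 2-fold apart was 1, but 2 (6.45%) without a floor or at a 25th percentile floor, where Sema3d joined Sema5a and 14.5% and 8.02% of all genes were as far apart. It was 0 with the median over probe sets (2.95% of all genes) and 0 at 3-fold (1.03%), and 5 at 1.5-fold (16.1% against 14.8%). Among pathway partners it was 4 (3 to 5 under the 9 alternatives), 7 at 1.5-fold and 0 at 3-fold. Their share toward the ECA pool was 6.82% to 10.9% under the 9 alternatives, against 1.12% to 8.38% of all genes, closest with no floor. The median of the ligands ranged from 0.05 to 0.13 and that of the receptors from -0.14 to 0.18. With the median over probe sets Plxna2, Nrp2 and Sema6c were above 0, at 0.23, 0.31 and 0.25, and Sema6d at -0.01, and Plxnb3 was at 0.36. Without probe sets named as shared or open to cross-hybridisation, Sema3f was at 0.45, Sema4a at -0.19 and Plxnb3 at -0.15. A 75th percentile floor left 8 members without a value. Signals near the floor limit Sema3d, Sema3e and Sema6b to bounds.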

Other observations

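Several class 3 semaphorin genes are neighbours in the mouse genome. In the RefSeq order of protein-coding genes Sema3d and Sema3a are adjacent on chromosome 5, with Sema3e 3 genes and Sema3c a further 15 genes beyond. All 4 had a ratio or bound above 0, from 0.12 to 0.58, as had 56.2% of all genes. The values of Sema3d and Sema3e are lower bounds near the floor, and the other Sema3c probe set was at -0.03. Sema3b and Sema3f lie on chromosome 9 with 3 genes between them, at 0.44 and -0.32. Plxnb3 and Plxna3, the members with the highest ratios, both lie on chromosome X with 23 genes between them. The other Plxnb3 probe set was at -0.15. These positions were looked up after the ratios were known.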
